A study of Mus musculus with 18 samples.

Results

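The genes described here are 31 genes of cholesterol and fatty acid synthesis, out of 23453 gene symbols in the count table. They were chosen by symbol, as known targets or parts of the SREBP pathway, and all 31 were in the table. By role they comprised 7 mevalonate enzymes, 11 enzymes of the sterol branch, 4 regulators and sterol carriers, and 9 fatty acid enzymes. Sterol regulatory element binding proteins (SREBPs) are membrane-bound transcription factors of the endoplasmic reticulum. When sterols are scarce, Scap carries them to the Golgi, where proteases free the factor that enters the nucleus, and when sterols are plentiful, Insig proteins hold Scap back. Srebf2 encodes the form that mainly drives sterol synthesis and Srebf1 the forms that mainly drive fatty acid synthesis, and endosomes matter to the pathway because cholesterol from lipoproteins reaches the rest of the cell through them.

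Hrs, encoded by Hgs, is the ESCRT-0 protein that gathers ubiquitinated membrane proteins on endosomes. The study knocked it down in B16F10, a melanoma line of C57BL/6 mice, with a lentiviral pLKO.1 shRNA (shHrs), and compared it with a scrambled shRNA (shCTL). Cultures came in 2 batches, each with 2 shHrs and 2 shCTL libraries, from cells without a host. Tumours of the line, which the titles call xenografts and another label a homograft model, were taken from immunocompetent wild-type C57BL/6 female mice aged 6 to 8 weeks, 5 with shHrs and 5 with shCTL. Infected cells of every group had been selected with puromycin or blasticidin, and the labels name no clone. They speak of biological repeats without saying if the cultures of 1 batch came from separate dishes. The p-values for cultures therefore measure only how far these libraries lie apart, and that distance may be technical. Tumour RNA came from harvested tumours with no sorting described, so host cells were included, and in such bulk samples fewer cells of a type and less RNA per cell cannot be told apart.

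Libraries held between 17612820 and 27705076 counts. Levels are given as CPM, counts scaled to a common library size with TMM factors, and log2 fold changes are shHrs over shCTL from edgeR's quasi-likelihood fit, with Benjamini-Hochberg adjustment across the genes tested and 0.05 as the threshold. Hgs stood at 35.2 and 30.4 CPM in batch 1 shHrs cultures, against 95.0 and 113 CPM in shCTL cultures. In batch 2 it stood at 44.5 and 41.3 CPM with shHrs, against 97.8 and 107 CPM with shCTL, and in tumours at 16.1 to 29.2 CPM with shHrs, against 95.8 to 112 CPM with shCTL. In each batch and in the tumours, the highest shHrs value of Hgs lay below the lowest shCTL value. Its log2 fold change was -1.67 in batch 1 (adjusted p by edgeR = 0.103), -1.30 in batch 2 (adjusted p by edgeR = 0.0268) and -2.28 in tumours (adjusted p by edgeR = 0.000106). The 7 melanocyte markers summed to 20400 to 27500 CPM in shHrs tumours and 20000 to 24900 CPM in shCTL tumours, and none of them was at 0 in any group.

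The RefSeq promoter table of GRCm38.p6, the assembly of mm10, held start sites for 24 of the 31 genes. Windows from 250 bases before to 10 bases after each start were searched on both strands for the sterol regulatory element TCACNCCAC, the classical SREBP site, and for the CCAAT box, which binds NF-Y, a partner of SREBPs at many sterol genes. The sterol element was found in 1 of the 24 genes, Hmgcs1, against 1.27% of the 26994 genes in the table. The CCAAT box was found in 19 of the 24 genes, or 79.2%, against 38.3% of all genes, and the motifs did not overlap in the windows shown. A set of 4 windows are shown because their genes carry the results below, Hmgcs1 (chr13:119690101-119690360, plus strand), Insig1 (chr5:28071162-28071421, plus strand), Dhcr7 (chr7:143829964-143830223, plus strand, 1 of 3 listed starts) and Hsd17b7 (chr1:169969196-169969455, minus strand), with both motifs in capitals on either strand, so that a CCAAT box on the other strand reads ATTGG.
Hmgcs1: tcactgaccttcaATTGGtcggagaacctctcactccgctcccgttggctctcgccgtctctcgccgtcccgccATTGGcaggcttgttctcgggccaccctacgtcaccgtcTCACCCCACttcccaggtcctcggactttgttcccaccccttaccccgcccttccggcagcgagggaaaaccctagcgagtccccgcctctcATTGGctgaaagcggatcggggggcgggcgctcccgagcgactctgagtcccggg
Insig1: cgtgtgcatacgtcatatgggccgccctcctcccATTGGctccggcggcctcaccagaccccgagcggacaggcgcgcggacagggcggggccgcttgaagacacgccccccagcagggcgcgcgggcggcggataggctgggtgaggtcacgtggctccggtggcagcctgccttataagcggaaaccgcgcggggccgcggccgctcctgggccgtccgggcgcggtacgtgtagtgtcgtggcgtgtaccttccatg
Dhcr7: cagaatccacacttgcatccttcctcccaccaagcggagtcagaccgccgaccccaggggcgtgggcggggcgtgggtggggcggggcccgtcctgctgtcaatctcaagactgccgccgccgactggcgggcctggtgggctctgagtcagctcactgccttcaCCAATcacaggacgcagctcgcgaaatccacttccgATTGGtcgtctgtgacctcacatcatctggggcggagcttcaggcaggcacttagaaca
Hsd17b7: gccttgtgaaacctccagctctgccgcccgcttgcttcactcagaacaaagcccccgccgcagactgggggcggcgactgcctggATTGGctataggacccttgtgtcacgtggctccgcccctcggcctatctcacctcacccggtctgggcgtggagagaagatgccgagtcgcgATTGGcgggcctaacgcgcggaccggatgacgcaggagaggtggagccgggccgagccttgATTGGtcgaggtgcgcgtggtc

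Me1, a fatty acid enzyme gene that rose in batch 2, is also known as a target of Nrf2, the factor of the oxidative stress response, which binds antioxidant response elements. The core of that element, TGACNNNGC, was found in 4 of the 24 genes, or 16.7%, against 12% of all genes in the table. The 4 genes were Mvk, Pmvk, Dhcr7 and Me1, and the Dhcr7 window above holds 1 copy that is not marked. The batch 2 log2 fold changes of Mvk, Pmvk and Dhcr7 were 0.80, -1.01 and 0.21, none past the threshold. The Me1 window shown held no CCAAT box, which was found at the other of its 2 starts. The window of Me1 (chr9:86695905-86696164, minus strand, 1 of 2 listed starts) is shown with the core in capitals, and the core lies across the start.
Me1: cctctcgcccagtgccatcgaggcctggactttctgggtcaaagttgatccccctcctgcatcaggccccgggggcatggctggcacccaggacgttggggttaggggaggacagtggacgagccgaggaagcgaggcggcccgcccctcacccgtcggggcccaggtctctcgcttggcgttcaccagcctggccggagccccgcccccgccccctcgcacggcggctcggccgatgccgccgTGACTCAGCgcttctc
A match is a description of these letters only. Where a gene had several starts, the window with the most copies of the motifs marked was the one shown. The CCAAT box was found at 1 of 3 starts of Dhcr7 and 1 of 2 starts of Me1, and the antioxidant core at 1 of 2 starts of Me1.

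Levels between genes were compared per kilobase of the longest coding transcript of the GENCODE annotation M21, as RPKM. Scd2, a stearoyl-CoA desaturase that makes monounsaturated fatty acids, had the highest RPKM of the 31 genes in each of the 6 groups, with 391 ± 100 RPKM in shHrs tumours and 336 ± 50.9 RPKM in shCTL tumours (SD, n = 5 each). Fdps, which makes farnesyl pyrophosphate, was next, with 299 ± 49.2 RPKM in shHrs tumours and 291 ± 37.6 RPKM in shCTL tumours, but 81.3% of its exonic bases overlap the same-strand gene Gm43738. Stard4, a sterol carrier, was near the other end, with 5.34 ± 2.28 RPKM in shHrs tumours and 5.56 ± 1.01 RPKM in shCTL tumours. For Fdps the means differed by less than the SD of either tumour group, and for Scd2 by less than the SD of the shHrs tumours but more than that of the shCTL tumours. Of the other genes, Fdft1 overlaps Ctsb on the opposite strand over 20.9% of its exonic bases and Hmgcs1 overlaps Gm48342 over 16.1%. Reads of these genes, and of close relatives such as Scd1 and Scd2, may have been split or shared.

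The mean log2 level of the 31 genes, as log2(CPM + 2), differed most between libraries of batch 1. There it was 7.03 and 5.31 in shHrs cultures, against 6.82 and 6.48 in shCTL cultures. In batch 2 it was 6.09 and 5.96 with shHrs, against 6.03 and 5.6 with shCTL. Tumours spanned 6.53 to 7.39 with shHrs and 6.70 to 7.08 with shCTL. Each shCTL level of batch 2 was below each shCTL level of batch 1, and the labels say no more of a batch than its number. The kind of sample and the sequencing run cannot be told apart where cultures and tumours are set side by side.

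**Figure D1:**
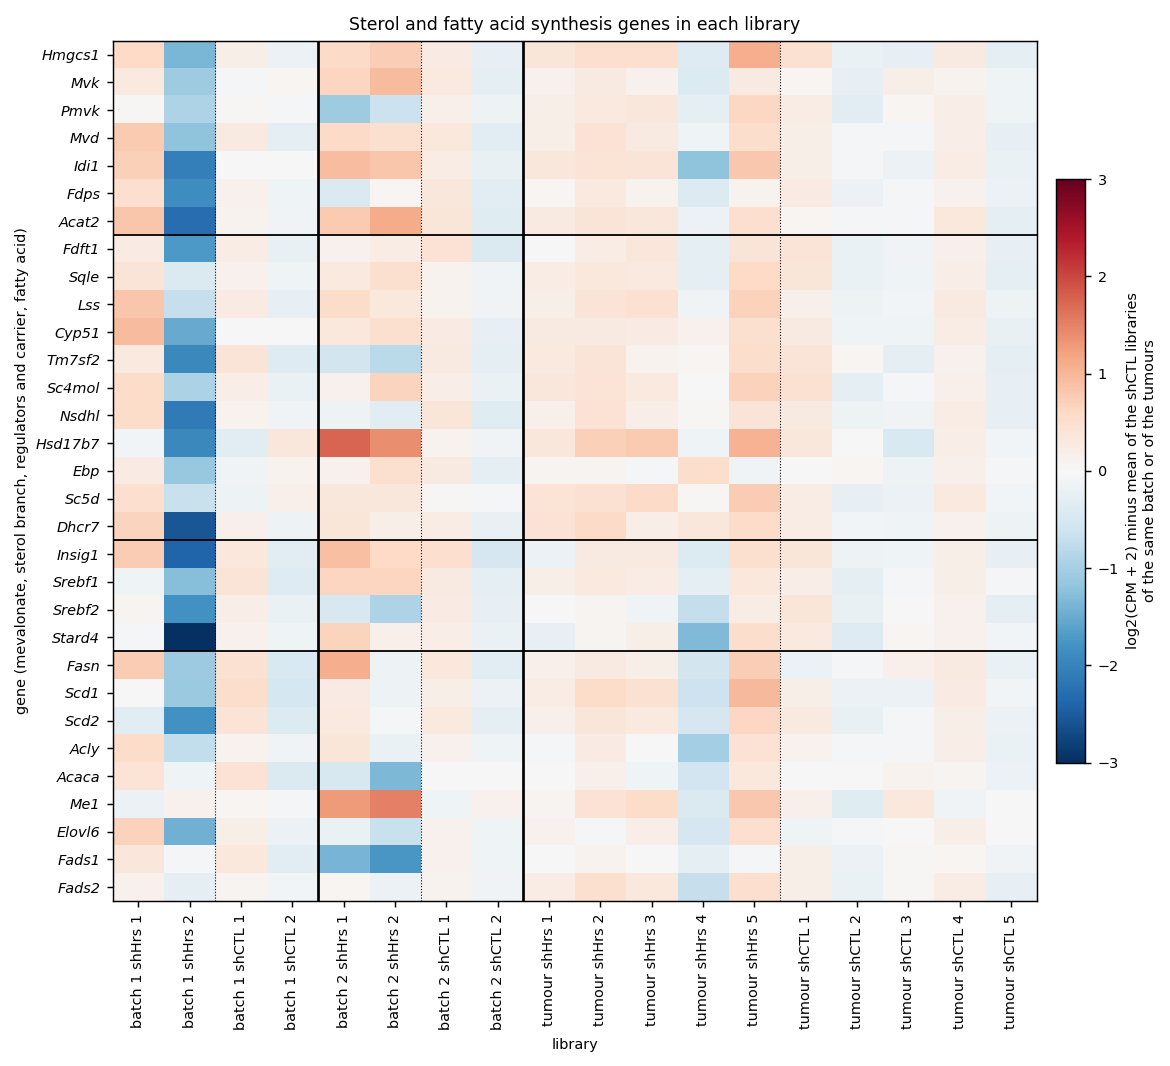
Each cell is log2(CPM + 2) of 1 gene in 1 library minus the mean of the shCTL libraries of the same batch or of the tumours, with shHrs libraries left of shCTL libraries and genes ordered by role. The column of batch 1 shHrs replicate 2 is blue for nearly every gene while replicate 1 of the same group is mostly red, and in tumours the columns of shHrs replicates 4 and 5 stand apart in a like way, with smaller differences.

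In batch 1 the shHrs cultures sat on opposite sides of the controls. Replicate 2 was the lowest of the 4 libraries for 28 of the 31 genes, against 32.9% of all 12897 genes tested, and the exceptions were Acaca, Me1 and Fads1. Replicate 1 was the highest of the 4 for 21 of the 31 genes, against 17.6% of all genes. Replicate 2 minus replicate 1 had a median of -1.84 on the log2 scale over the 31 genes, against 0.03 over all genes tested, and 30 of the 31 differences were negative. Among all genes tested, 47.5% of differences were negative and the median size was 0.38.

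The split ran through each role. Medians of replicate 2 minus replicate 1 were -2.0 for the mevalonate enzymes, -1.87 for the sterol branch enzymes, -2.44 for the regulators and sterol carrier and -1.10 for the fatty acid enzymes. Dhcr7, the last reductase of cholesterol synthesis, had 176 CPM in shHrs replicate 1 and 17.1 CPM in shHrs replicate 2, against 124 and 98.4 CPM in shCTL cultures. Insig1, the sterol-sensing retention protein and itself an SREBP target, had 251 CPM in shHrs replicate 1 and 26.0 CPM in shHrs replicate 2, against 184 and 117 CPM in shCTL cultures. Both controls thus lay between the shHrs cultures for these genes.

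The mevalonate enzymes other than Pmvk showed the same order. Acat2, the thiolase that joins acetyl-CoA units, had 101 CPM in shHrs replicate 1 and 9.85 CPM in shHrs replicate 2, against 60.4 and 51.1 CPM in shCTL cultures. Idi1, the isopentenyl diphosphate isomerase, had 45.2 CPM in shHrs replicate 1 and 4.85 CPM in shHrs replicate 2, against 26.2 and 26.9 CPM in shCTL cultures. Hmgcs1, which makes the HMG-CoA that enters the pathway, had 208 CPM in shHrs replicate 1 and 51.1 CPM in shHrs replicate 2, against 153 and 121 CPM in shCTL cultures. These 5 genes were picked for their difference after their values were seen. Fads1, the delta-5 desaturase of polyunsaturated fatty acids, had 140 and 105 CPM with shHrs, against 137 and 88.5 CPM with shCTL, so its groups differed little. Me1, the cytosolic malic enzyme that makes NADPH for fatty acid synthesis, was the gene with a positive difference, at 84.6 CPM in shHrs replicate 1 and 105 CPM in shHrs replicate 2, against 100 and 93.1 CPM in shCTL cultures.

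**Figure D2:**
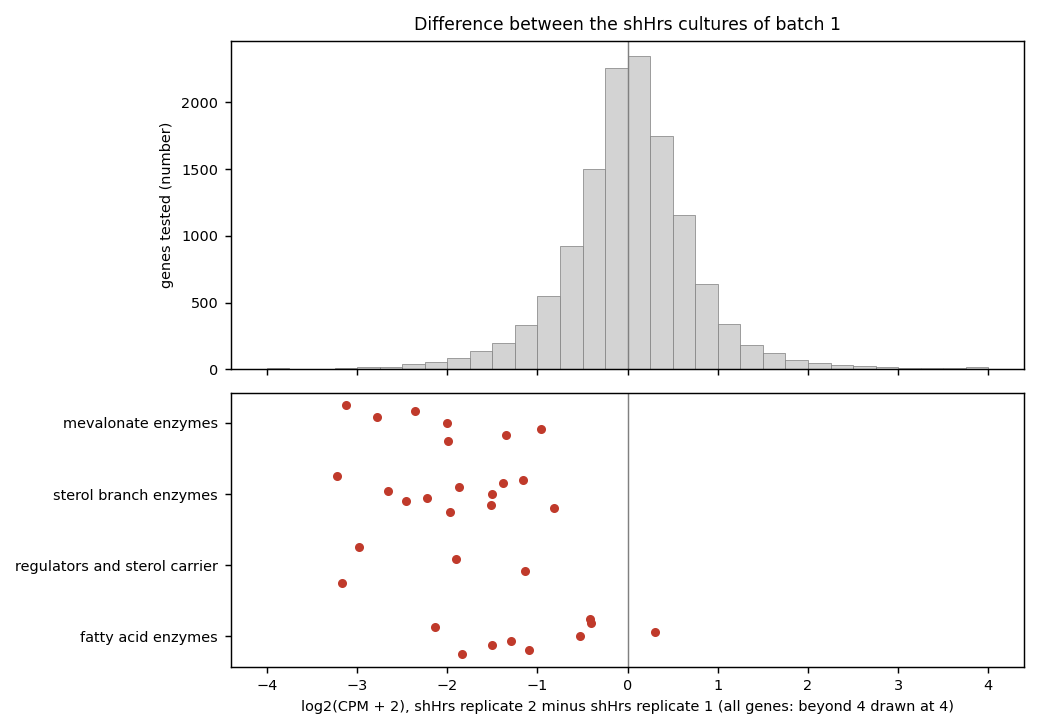
The upper panel counts all genes tested by log2(CPM + 2) in shHrs replicate 2 minus shHrs replicate 1 of batch 1, and the lower panel places each of the 31 genes on the same axis by role. All genes centre near 0 (median 0.03), whereas the 31 genes spread from -3.22 to 0.30 with a median of -1.84.

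Distances between libraries of the other culture groups were smaller. Over the 31 genes, the median difference of replicate 2 minus replicate 1 was -0.33 in batch 1 shCTL, -0.18 in batch 2 shHrs and -0.45 in batch 2 shCTL cultures. Over all genes tested these medians were -0.017, 0.025 and 0.023. Differences were negative for 26, 20 and 29 of the 31 genes in that order, against 51.8%, 47% and 46.1% of all genes. The 31 genes thus leaned to one side in the control pairs too, at smaller size. The 2 shHrs cultures of batch 1 had Hgs at 35.2 and 30.4 CPM and totals of 18491446 and 21789041 counts. Their 7 melanocyte markers summed to 19200 CPM in replicate 1 and 8130 CPM in replicate 2, against 15200 and 9500 CPM in shCTL cultures, and the part of this difference in the result was not tested.

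As groups, batch 1 shHrs and shCTL cultures overlapped for all 31 genes. No gene stood above in every shHrs library, where 15.3% of all genes did, and none stood below, where 16.8% did. EdgeR called 0 of the 31 genes and 0% of all genes tested (1210 genes, or 9.38%, at an unadjusted p under 0.05, and 220 genes by DESeq2), and 0 of the 31 had an unadjusted p under 0.05. Of the 31 log2 fold changes 10 were positive, against 50.6% of all genes, with a median of -0.09 against 0.01 over all genes. Without shHrs replicate 1 the median was -1.40 and edgeR called 18 of the 31 genes lower, against 11.3% of all genes called in that fit. Without shHrs replicate 2 it was 0.39 with 0 of the 31 and 0% of all genes called (1016 genes at an unadjusted p under 0.05). It was -0.01 without shCTL replicate 1 and -0.22 without shCTL replicate 2. In these fits the lone shHrs library was assumed to vary like the other groups.

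The 6 genes with the smallest unadjusted p in batch 1 all had negative values, but none passed the threshold (adjusted p by edgeR = 0.601 to 0.747). Scd2 had 2030 and 712 CPM with shHrs, against 3370 and 1890 CPM with shCTL, a log2 fold change of -0.93 (SE 0.51). Scd1, its close relative, had 197 and 90.7 CPM with shHrs, against 291 and 137 CPM with shCTL (-0.57, SE 0.45). Srebf1 had 145 and 64.8 CPM with shHrs, against 209 and 122 CPM with shCTL (-0.65, SE 0.42). For each of them shHrs replicate 1 lay within the range of the controls and replicate 2 below it. Hsd17b7, the reductase that acts on intermediates after lanosterol, had 35.8 and 8.38 CPM with shHrs, against 29.2 and 48.5 CPM with shCTL (-0.81, SE 0.59). Stard4 had 32.7 and 2.4 CPM with shHrs, against 37.6 and 30.9 CPM with shCTL (-0.95, SE 0.88). Srebf2 had 432 and 114 CPM with shHrs, against 463 and 355 CPM with shCTL (-0.57, SE 0.54). For these too, replicate 1 lay within the range of the controls and replicate 2 below it.

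In batch 2 Me1 rose and Fads1 fell with the knockdown, and these were the 2 of the 31 genes that edgeR called, against 4.03% of all 12897 genes (1.60% higher and 2.43% lower). Me1 had 170 and 200 CPM in shHrs cultures, against 62.9 and 76.3 CPM in shCTL cultures, a log2 fold change of 1.36 (SE 0.22, adjusted p by edgeR = 0.0259). Fads1 had 57.9 and 44.7 CPM in shHrs cultures, against 169 and 141 CPM in shCTL cultures, a log2 fold change of -1.64 (SE 0.30, adjusted p by edgeR = 0.0325). The groups were far apart for both genes. By edgeR the adjusted p of Me1 was 0.117 to 0.289, and that of Fads1 0.117 to 0.324, when shHrs replicate 1 or 2 or shCTL replicate 1 or 2 of batch 2 was left out, so each call ended without any one of them. The log2 fold changes in those fits were 1.24 to 1.49 for Me1 and -1.86 to -1.42 for Fads1, and the fits called 0% of all genes by edgeR (1728 to 3010 genes at an unadjusted p under 0.05). Over all other alternatives the adjusted p ran from 1.07e-05 to 0.0381 for Me1 and from 8.64e-05 to 0.0364 for Fads1 by edgeR and DESeq2. Me1 lies on chromosome 9 from 86581371 to 86695953 on the minus strand, and Fads1 on chromosome 19 from 10182888 to 10196877 on the plus strand (GRCm38).

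Fads2, the delta-6 desaturase beside Fads1 on chromosome 19, had 117 and 98.4 CPM with shHrs, against 121 and 103 CPM with shCTL (log2 fold change -0.10, SE 0.25), so its groups overlapped. Acaca, the acetyl-CoA carboxylase that commits carbon to fatty acids, had 81.8 and 43.6 CPM with shHrs, against 113 and 115 CPM with shCTL (-0.90, SE 0.40, adjusted p by edgeR = 0.180). Fasn, the fatty acid synthase, had 869 and 367 CPM with shHrs, against 505 and 330 CPM with shCTL (0.52, SE 0.64). Of the 9 fatty acid enzymes 5 had positive and 4 negative values in batch 2, with a median of 0.01. They did not share a direction.

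Sterol genes of batch 2 were mostly on the positive side without passing. Values were positive for 5 of 7 mevalonate enzymes (median 0.60), 9 of 11 sterol branch enzymes (median 0.30) and 3 of 4 regulators and carriers (median 0.51). The mevalonate values ran from -1.01 to 0.95 and the sterol branch values from -1.0 to 1.68. Hsd17b7 had 48.8 and 38.0 CPM with shHrs, against 14.3 and 12.0 CPM with shCTL, a log2 fold change of 1.68 (SE 0.60, adjusted p by edgeR = 0.118). It was called higher by DESeq2, and by edgeR with no filter on low counts, with the 4 libraries of batch 2 alone, or without either shHrs library of batch 1, settings that called 12.6% to 34.1% of all genes. Pmvk, the phosphomevalonate kinase, went the other way, at 10.0 and 14.2 CPM with shHrs, against 26.2 and 20.7 CPM with shCTL (-1.01, SE 0.39, adjusted p by edgeR = 0.137). So did Srebf2, at 158 and 116 CPM with shHrs, against 260 and 187 CPM with shCTL (-0.75, SE 0.54), and Tm7sf2, a sterol C14 reductase, at 4.40 and 3.38 CPM with shHrs, against 9.26 and 5.80 CPM with shCTL (-1.0, SE 0.86). The libraries of both groups stood apart for Hsd17b7, Pmvk, Srebf2 and Tm7sf2.

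Over all 31 genes, 13 were higher in both shHrs cultures of batch 2 than in both controls, against 35.0% of all genes, and 6 were lower in both, against 34.7%. Positive values were found for 22 of the 31 genes, against 47.3% of all genes, with a median of 0.30 against -0.05. At an unadjusted p under 0.05 were 4 of the 31 genes, Me1, Fads1, Hsd17b7 and Pmvk, against 27.9% of all genes. The lowest of the 4 libraries was shCTL replicate 2 for 21 of the 31 genes, against 24.3% of all genes. The median was 0.11 without shCTL replicate 2, 0.53 without shCTL replicate 1 and 0.10 without shHrs replicate 1 of batch 2. Fitted on the 4 libraries of batch 2 alone, edgeR called 11 of the 31 genes, among 4303 genes in all, or 34.1%. When either shHrs culture of batch 1 was left out of the shared fit, it called 6 of the 31, with Idi1, Acat2, Hsd17b7 and Me1 higher and Pmvk and Fads1 lower, in fits that called 20.4% and 20.7% of all genes. In the same batch the 7 melanocyte markers summed to 5220 and 4330 CPM with shHrs, against 13800 and 11600 CPM with shCTL, and their part in the result was not tested.

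**Figure D3:**
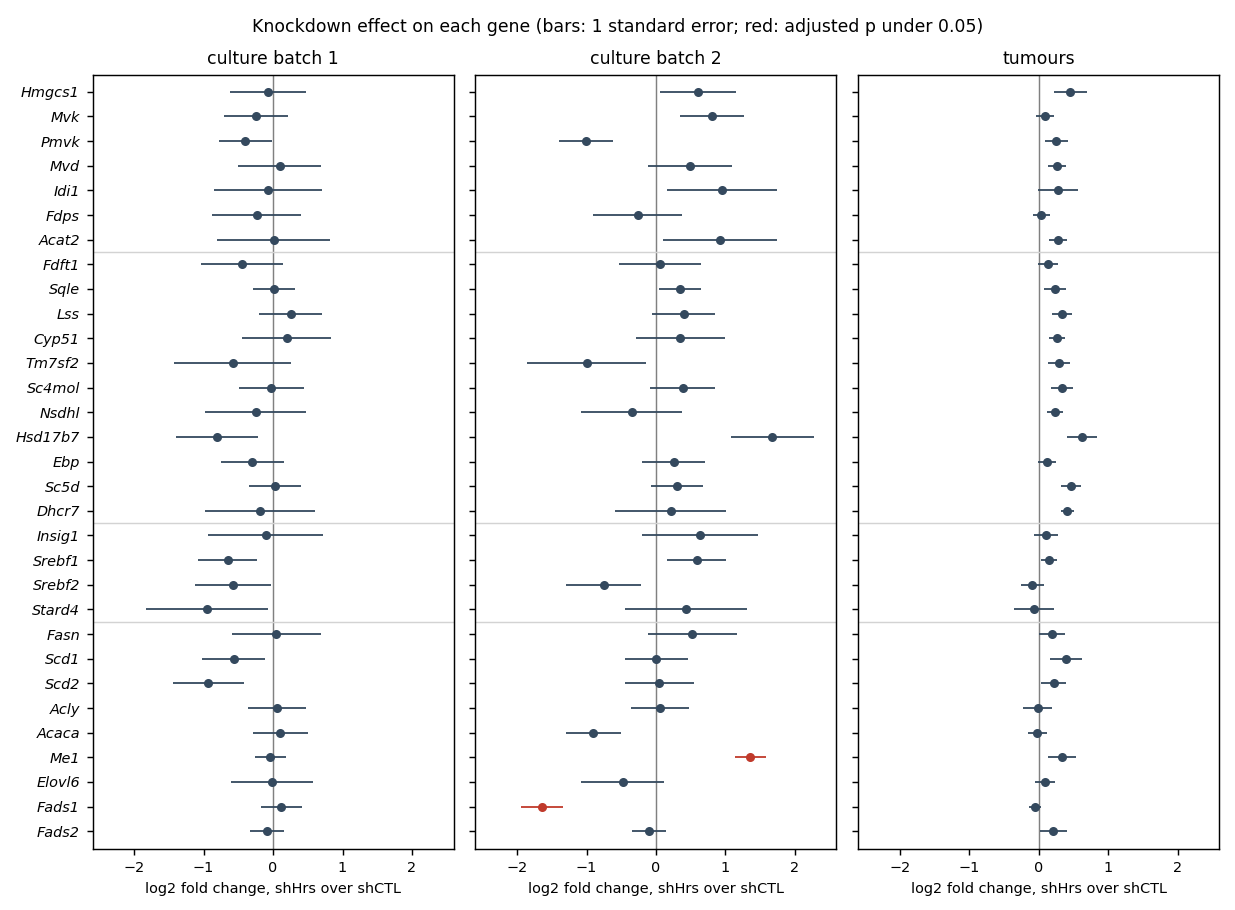
Points are log2 fold changes (shHrs over shCTL) of the 31 genes with bars of 1 standard error from edgeR, in batch 1, batch 2 and tumours, and red points have an adjusted p under 0.05. Only Me1 (1.36) and Fads1 (-1.64) in batch 2 are red, the bars are widest in the cultures, and in tumours all enzymes of the mevalonate and sterol branches lie to the right of 0.

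With both batches in one fit and batch as a term, edgeR called 0 of the 31 genes and 0% of 12617 genes tested (1680 genes, or 13.3%, at an unadjusted p under 0.05, and 301 genes by DESeq2). The values were positive for 16 of the 31 genes, against 48.3% of all genes, with a median of 0.01 against -0.02. Leaving out shHrs replicate 1 of batch 1 gave a median of -0.29, and leaving out its replicate 2 gave 0.29. It was -0.07 without shHrs replicate 1 and -0.11 without shCTL replicate 2 of batch 2. Pmvk was the 1 gene at an unadjusted p under 0.05, with a log2 fold change of -0.70 (SE 0.29, adjusted p by edgeR = 0.357). It was followed by Me1 (0.66, SE 0.29), Fads1 (-0.76, SE 0.38), Srebf2 (-0.66, SE 0.38), Tm7sf2 (-0.79, SE 0.60) and Acaca (-0.40, SE 0.33). In batch 1 Pmvk had 24.1 and 11.4 CPM with shHrs, against 24.2 and 22.7 CPM with shCTL, and Acaca had 197 and 136 CPM with shHrs, against 201 and 109 CPM with shCTL. Tm7sf2 had 14.0 and 1.42 CPM with shHrs in that batch, against 15.3 and 8.00 CPM with shCTL.

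The difference between the batches was tested as batch 2 effect minus batch 1 effect. EdgeR called 0 of the 31 genes, against 0.155% of all genes tested, while 3 of the 31 had an unadjusted p under 0.05, against 20.3% of all genes. Me1 came closest, with a difference of 1.40 (SE 0.31, adjusted p by edgeR = 0.0871), followed by Fads1 at -1.76 (SE 0.42, adjusted p by edgeR = 0.0966) and Hsd17b7 at 2.49 (SE 0.84, adjusted p by edgeR = 0.161). All 3 passed by DESeq2, which called 7.60% of all genes, and by edgeR with no filter on low counts, which called 7.45%. Srebf1 had a difference of 1.24 (SE 0.60), with 113 and 112 CPM in batch 2 shHrs cultures, against 85.9 and 59.0 CPM in shCTL cultures. Acaca had -1.01 (SE 0.56) and Mvk, the mevalonate kinase, 1.05 (SE 0.65), with 25.7 and 32.5 CPM in batch 2 shHrs cultures, against 19.6 and 12.6 CPM in shCTL cultures. In batch 1 Mvk had 36.7 and 13.2 CPM with shHrs, against 28.5 and 30.9 CPM with shCTL. The difference was positive for 22 of the 31 genes, against 48.1% of all genes, with a median of 0.40 against -0.04. Without batch 1 shHrs replicate 1 the median was 1.75 with 19 of the 31 genes called, against 14.8% of all genes, and without batch 1 shHrs replicate 2 it was -0.21 with 2 of the 31 called, against 4.81% of all genes. It was 0.20 without batch 1 shCTL replicate 1, 0.19 without batch 2 shCTL replicate 2 and 0.65 without batch 2 shCTL replicate 1.

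**Figure D4:**
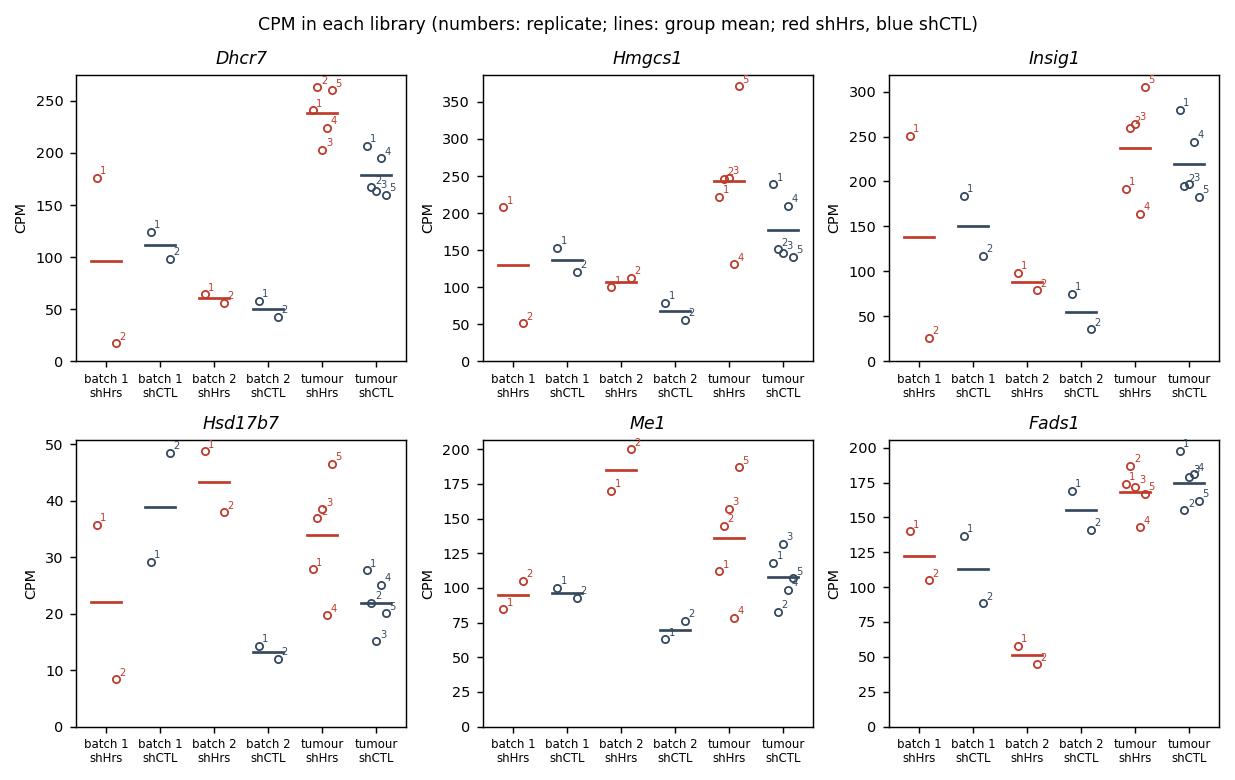
CPM of 6 genes in each library, with red circles for shHrs, blue circles for shCTL, replicate numbers beside them and lines at group means, on axes that start at 0. Dhcr7, Hmgcs1 and Insig1 show the distance between the shHrs cultures of batch 1, and Me1 and Fads1 the groups that stand apart in batch 2 (Me1 185 ± 20.8 with shHrs and 69.6 ± 9.52 CPM with shCTL; Fads1 51.3 ± 9.32 with shHrs and 155 ± 20.2 CPM with shCTL; SD, n = 2 each).

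In tumours the sterol genes had small positive values with the knockdown. Log2 fold changes were positive for all 7 mevalonate enzymes (median 0.26) and all 11 sterol branch enzymes (median 0.29), for 2 of 4 regulators and carriers (median 0.02) and for 6 of 9 fatty acid enzymes (median 0.19). Over the 31 genes 26 were positive, against 51.5% of all 13215 genes tested, with a median of 0.23 against 0.01. EdgeR called 0 of the 31 genes, against 0.545% of all genes, and 5 of the 31 had an unadjusted p under 0.05, against 14.1% of all genes. DESeq2 called 1 of the 31, Dhcr7, against 4.16% of all genes. With 1 tumour left out, the lowest values were -0.03 for Fdps and -0.02 for Ebp, so their direction hung on single tumours. The other mevalonate and sterol branch enzymes stayed positive in those fits.

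Dhcr7 had 241, 263, 203, 224 and 260 CPM in shHrs tumours, against 207, 167, 163, 195 and 160 CPM in shCTL tumours. Its means were 238 ± 25 CPM in shHrs tumours and 179 ± 21.3 CPM in shCTL tumours (SD, n = 5 each). The log2 fold change was 0.41 (SE 0.10, adjusted p by edgeR = 0.0971, and 0.00429 by DESeq2). The groups overlapped only in that shHrs replicate 3 lay below shCTL replicate 1. Over the alternatives run in edgeR the adjusted p was 0.0721 to 0.261. Dhcr7 lies on chromosome 7 from 143823145 to 143848410 on the plus strand (GRCm38).

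Sc5d, the lathosterol oxidase that acts just before Dhcr7, had 65.1, 67.2, 72.3, 49.2 and 83.1 CPM in shHrs tumours, against 56.7, 40.2, 42.4, 59.6 and 45.3 CPM in shCTL tumours (log2 fold change 0.46, SE 0.15, adjusted p by edgeR = 0.172). Hsd17b7 had 27.9, 36.9, 38.5, 19.7 and 46.6 CPM in shHrs tumours, against 27.7, 21.9, 15.1, 25.1 and 20.1 CPM in shCTL tumours (0.62, SE 0.22, adjusted p by edgeR = 0.225). For both genes 4 shHrs tumours lay above every control, and shHrs replicate 4 lay among the controls. Lss, the lanosterol synthase, had 69.3, 81.5, 85.4, 56.5 and 100 CPM in shHrs tumours, against 68.2, 54.7, 57.4, 74.3 and 54.6 CPM in shCTL tumours (0.34, SE 0.14, adjusted p by edgeR = 0.319). Its groups overlapped in shHrs replicates 1 and 4.

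Cyp51, the lanosterol demethylase, had 368, 368, 367, 334 and 426 CPM in shHrs tumours, against 371, 281, 279, 357 and 262 CPM in shCTL tumours (0.26, SE 0.11, adjusted p by edgeR = 0.314). Sc4mol, the C4 methylsterol oxidase now named Msmo1, had 256, 270, 247, 201 and 325 CPM in shHrs tumours, against 277, 163, 195, 224 and 169 CPM in shCTL tumours (0.33, SE 0.16, adjusted p by edgeR = 0.375). For these genes shHrs replicate 5 alone lay above every control. The other sterol branch genes had positive values of 0.12 (SE 0.12) for the isomerase Ebp, 0.13 (SE 0.15) for the squalene synthase Fdft1, 0.23 (SE 0.12) for the dehydrogenase Nsdhl, 0.23 (SE 0.16) for the squalene epoxidase Sqle and 0.29 (SE 0.16) for Tm7sf2. Each of these missed the threshold, as did the mevalonate enzymes, whose values ran from 0.03 for Fdps to 0.45 (SE 0.24) for Hmgcs1.

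Among the regulators, Insig1 had a log2 fold change of 0.10 (SE 0.17), Srebf1 0.15 (SE 0.12), Srebf2 -0.10 (SE 0.17) and Stard4 -0.07 (SE 0.29) in tumours. Among the fatty acid enzymes Scd1 had 0.39 (SE 0.23), Me1 0.33 (SE 0.20) and Fasn 0.19 (SE 0.19). Acly, the citrate lyase that supplies acetyl-CoA, had -0.02 (SE 0.21), and Fads1, which fell in batch 2, had -0.06 (SE 0.09). None of the 31 genes was without overlap between the tumour groups, where 2.00% of all genes were above and 2.28% below in every shHrs tumour. The groups overlapped for every one of them.

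A pair of shHrs tumours held the extremes. Replicate 5 was the highest of the 10 tumours for 24 of the 31 genes, against 15.8% of all genes, and replicate 4 was the lowest for 19 of the 31, against 30.5% of all genes. Stard4 ran from 9.89 CPM in shHrs replicate 4 to 41.3 CPM in shHrs replicate 5, and Idi1 from 13.3 to 59.4 CPM in the same tumours. Ebp alone was highest in shHrs replicate 4. The median SD of the 31 genes on the log2 scale was 0.32 in shHrs tumours and 0.22 in shCTL tumours, against 0.20 and 0.15 over all genes tested. Without shHrs replicate 5 the median fold change over the 31 genes was 0.13, and without shHrs replicate 4 it was 0.34, with 0 of the 31 called in each case.

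For several lists of host cell markers, shHrs replicates 4 and 5 were the highest and the lowest of the shHrs tumours. The 9 myeloid markers summed to 806 CPM in shHrs replicate 4 and 184 CPM in shHrs replicate 5, the highest and the lowest of the shHrs tumours, and spanned 184 to 806 CPM in shHrs tumours and 33.1 to 480 CPM in shCTL tumours. The 7 skeletal muscle markers summed to 756 CPM in shHrs replicate 4 and 20.0 CPM in shHrs replicate 5. They spanned 20.0 to 756 CPM (median 255) in shHrs tumours and 2.34 to 172 CPM (median 21) in shCTL tumours. The 6 fibroblast markers summed to 1770 and 236 CPM in shHrs replicates 4 and 5. Their sums were 236 to 1770 CPM in shHrs tumours and 264 to 3080 CPM in shCTL tumours. The 4 T cell markers summed to 15.2 and 1.26 CPM in the same shHrs tumours, with 1.26 to 15.2 CPM in shHrs tumours and 0.176 to 4.55 CPM in shCTL tumours. None of these markers was at 0 in either group. The 5 erythroid markers did not follow this order. They summed to 1.92 to 9.67 CPM (median 5.45) in shHrs tumours and 4.03 to 117 CPM (median 58.8) in shCTL tumours. These groups overlapped, and Hba-a1 was at 0 in both. The 5 endothelial markers summed to 161 and 101 CPM in shHrs replicates 4 and 5, but replicate 3 was lowest at 93.1 CPM. They spanned 89.1 to 144 CPM in shCTL tumours. In shCTL replicates 1 to 5 the myeloid sums were 87.2, 347, 33.1, 237 and 480 CPM. The mean log2 levels of the 31 genes there were 7.076, 6.714, 6.806, 7.045 and 6.696. Of the controls, replicate 5 had the highest myeloid sum and the lowest level. Replicate 3 had the lowest myeloid sum, but replicate 1 the highest level. The fibroblast sums of shCTL replicates 1 to 5 were 264, 1880, 309, 297 and 3080 CPM. The part of host cell markers in the results was not tested. Adipocytes and sebocytes also make lipids. The 8 adipocyte markers summed to 36.2 to 164 CPM in shHrs tumours and 24.3 to 165 CPM in shCTL tumours, and the 8 markers of keratinocytes and sebocytes summed to 1.02 to 3.03 CPM in shHrs tumours and 0.644 to 1.66 CPM in shCTL tumours, with Mc5r at 0 in both and Krt14 at 0 in shCTL.

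The effect in tumours minus the mean effect in cultures was called for 0 of the 31 genes by edgeR, against 3.61% of 14458 genes tested, and 2 of the 31 had an unadjusted p under 0.05, against 21.0% of all genes. Fads1 had a difference of 0.69 (SE 0.20, adjusted p by edgeR = 0.0661), and had 174, 187, 172, 143 and 167 CPM in shHrs tumours, against 198, 155, 179, 181 and 162 CPM in shCTL tumours. Pmvk had a difference of 0.94 (SE 0.31, adjusted p by edgeR = 0.0900), and had 33.7, 37.1, 38.5, 24.1 and 46.6 CPM in shHrs tumours, against 35.1, 23.1, 31.2, 34.2 and 27.0 CPM in shCTL tumours. DESeq2 called both higher, among 9.76% of all genes. The tumour groups overlapped for both genes. The log2 fold changes of Fads1 were -0.06 in tumours, 0.12 in batch 1 and -1.64 in batch 2, and those of Pmvk were 0.25 in tumours, -0.40 in batch 1 and -1.01 in batch 2. Next were Tm7sf2 (1.07, SE 0.58), Scd1 (0.66, SE 0.41), Scd2 (0.64, SE 0.39) and Srebf2 (0.55, SE 0.41). The difference was positive for 21 of the 31 genes, against 51.2% of all genes, with a median of 0.17 against 0.02. Without batch 1 shHrs replicate 1 the median was 0.83 and 13 of the 31 genes were called higher, against 14.6% of all genes called in either direction, and without batch 1 shHrs replicate 2 it was -0.16. It was 0.03 without batch 2 shCTL replicate 1.

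Other genes of the pathway were read from lists by role. Of 22 other SREBP pathway genes, edgeR called 2 higher and 0 lower in batch 2, against 1.60% and 2.43% of all genes. It called 1 lower in the difference between tumours and cultures, against 3.61% of all genes in either direction, and 0 in the other comparisons. Pgd, the phosphogluconate dehydrogenase of the pentose phosphate pathway, a source of NADPH like Me1, had 671 and 815 CPM in batch 2 shHrs cultures, against 98.9 and 103 CPM in shCTL cultures (log2 fold change 2.83, SE 0.43, adjusted p by edgeR = 0.0229). G6pdx, the glucose-6-phosphate dehydrogenase of the same pathway, had 532 and 529 CPM in batch 2 shHrs cultures, against 117 and 107 CPM in shCTL cultures (2.19, SE 0.46, adjusted p by edgeR = 0.0422). Both are also known Nrf2 targets, and the part of Nrf2 in these results was not tested. Their calls too ended without any one library of batch 2, with log2 fold changes of 2.73 to 2.95 for Pgd and 2.12 to 2.27 for G6pdx. In batch 1 Pgd had 223 and 266 CPM with shHrs, against 150 and 392 CPM with shCTL, and G6pdx had 122 and 247 CPM with shHrs, against 150 and 365 CPM with shCTL, so neither gene's groups stood apart there.

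In tumours Pgd had a log2 fold change of -0.04 (SE 0.08), and its effect in tumours minus that in cultures was -1.40 (SE 0.27, adjusted p by edgeR = 0.0121). Scap had -0.25 (SE 0.09, adjusted p by edgeR = 0.206) in tumours and Insig2, the second retention protein, 0.20 (SE 0.14). Of the 7 genes of sterol sensing and efflux under LXR, the 15 of sterol uptake and endosomal export and the 14 of fatty acid oxidation and storage, edgeR called 0 in each comparison, over the members tested. Medians in tumours were 0.14, 0.11 and 0.02 for these lists. Npc1, which exports cholesterol from late endosomes, had values of -0.41 (SE 0.30) in batch 1, -0.69 (SE 0.30) in batch 2 and 0.15 (SE 0.07) in tumours, none past the threshold.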

How the data were processed

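RNA from B16F10 cultures and tumours was made into libraries with the NEBNext Ultra kit and sequenced as paired reads on a HiSeq, per the labels' protocols. The deposited table holds whole-number read counts per gene symbol, not normalized, for 23453 symbols and 18 libraries, with 0 columns unused. The submitters' processing notes name STAR 2.4.0h2, DESeq and the genome build mm10, while for the counting tool, annotation and strandedness the entry is: not given in the sources used here. The members and lists were chosen with earlier results of these data known.

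Counts were filtered by filterByExpr (minimum count 10) and scaled by TMM, and edgeR's quasi-likelihood test (edgeR 4.0.16, R 4.3.3) set shHrs against shCTL, with Benjamini-Hochberg adjustment at 0.05 over all genes tested. The 4 culture groups shared one fit with a term per group, or with batch as a term for both batches together, the 10 tumours had their own fit, and the difference between tumours and cultures came from all 18 libraries. DESeq2 1.42.0, DESeq2 size factors, no filter, the replicate number as a block, each batch alone and leaving out each library were alternatives. Levels are CPM, with 2 CPM added before log2. RPKM used the longest coding transcript. The scripts were tested on simulated data. Positions and overlaps came from GENCODE M21 (GRCm38) and promoters from RefSeq, which matched 24 of 31 genes. Replicates differed by more than sampling noise (chi-square per degree of freedom 13.8 to 209) and were all kept. Totals of 17612820 to 27705076 counts limit the precision for genes of low level.

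Values per library are given for genes past the threshold, or otherwise for the 6 of smallest unadjusted p per comparison, and genes outside this rule were chosen after their values were seen. Other pathway genes are given by list, with values for those called. The values of Scap, Insig2 and Npc1 and of regulators and enzymes not past the threshold were added to describe their roles.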

Additional observations from a re-analysis of the deposited data

Results flagged for a closer look

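The shHrs and shCTL tumours were each read for a library far from the other 4 of its group, in 64 groups over 32 genes, of which chance flags about 1 in 20. In 3 of them shHrs replicate 4 stood apart. Mvk was lowest there at 24.0 CPM, with 35.7 CPM in the nearest shHrs tumour, a gap of 0.744 of the group's range. Srebf1 was lowest there at 97.9 CPM, with 136 CPM in the nearest shHrs tumour, a gap of 0.715 of the range. Ebp was highest there at 90.8 CPM, with 66.5 CPM in the nearest shHrs tumour, a gap of 0.758 of the range.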

How the results depend on the processing

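With DESeq2 size factors in place of TMM, the counts of called members were as reported. EdgeR with no filter on low counts called 74 genes over both batches, 438 in batch 1, 2224 in batch 2 and 1311 in the difference between batches, with 3 members in each of the last 2. DESeq2 called 549 genes in tumours (1 member), 301 over both batches, 220 in batch 1, 1988 in batch 2 (3 members), 980 in the difference between batches (3 members) and 1410 in that between tumours and cultures (2 members). With batch 2 alone 4303 genes and 11 members were called. With the replicate block 6 genes were called in tumours and 1 in batch 1, and the numbers of members called were 0, 0, 0, 2, 0 and 0 in tumours, both batches, batch 1, batch 2, the difference between batches and that between tumours and cultures. Member medians with the replicate block were 0.20, -0.06, -0.48, 0.30, 0.60 and 0.28 in the same order. To see if replicate numbers pair libraries, each gene's group mean was subtracted from its log2 levels. The deviations left were correlated between same-numbered shHrs and shCTL libraries, at 0.176 in batch 1, 0.023 in batch 2 and -0.598 to 0.467 in tumours. With 2 libraries in a group the deviations mirror each other, so a batch gives 1 value. Of the 5 shHrs tumours 1 correlated best with the shCTL tumour of its own number. Leaving out 1 library each, genes called ranged over 32 to 158 in tumours, 0 to 164 over both batches, 0 to 1496 in batch 1, 0 to 2732 in batch 2, 0 to 1968 in the difference between batches and 125 to 2194 in that between tumours and cultures. Members called ranged over 0 to 0, 0 to 0, 0 to 18, 0 to 6, 0 to 19 and 0 to 13 in that order, and member medians over 0.13 to 0.34, -0.29 to 0.29, -1.40 to 0.39, 0.10 to 0.53, -0.21 to 1.75 and -0.16 to 0.83. The directions counted in the Results include members that were not called, and some signs changed in the alternatives. Signs changed in 17 of 434 values in tumours, 34 of 372 over both batches, 47 of 403 in batch 1 and 14 of 403 in batch 2. They changed in 48 of 372 values in the difference between batches and 64 of 682 in that between tumours and cultures. Values that changed sign and were called without batch 1 shHrs replicate 1 ranged over -1.40 to 0.81 for Mvd, -2.54 to 0.88 for Acat2 and -1.60 to 0.97 for Cyp51 in batch 1, -0.79 to 1.70 for Fdps and -0.93 to 2.05 for Nsdhl in the difference between batches, and -0.65 to 1.04 for Acat2 and -0.43 to 0.83 for Cyp51 in that between tumours and cultures. The cause was not tested. With 2 libraries in a culture group, and 1 of them left out, the lone library was assumed to vary like the other groups.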
